A study of Arabidopsis thaliana with 14 samples.

Results

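The loci described here are 34 probe sets whose signal was low in drought-treated leaves of the CAMTA5 overexpression line OX-5 and higher in every other group of the series. A member is a probe set annotated to 1 gene that has no symbol beyond its AGI locus number, with a mean of log2(signal + 16) in OX-5 drought that lay at least 3 below the mean of each of the 4 other groups. The rule took 34 of the 11933 probe sets with such a locus symbol, out of 22810 probe sets in all, and each member came from a different gene (34 of the 11798 genes of this class, and of 13350 genes with a probe set of their own). The loci were chosen by their measured signals on the OX-5 arrays and on the arrays of the 4 other groups, so every OX-5 difference below is a description and carries no test.

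Leaf RNA of Arabidopsis thaliana plants, 1 month old and in the Col-0 background, was hybridised to 14 ATH1 arrays, with 250 ng of total RNA for each. The groups were OX-5 after 14 days of drought (2 arrays), the mutant line camta5-a after the same drought (3 arrays) and with water (3 arrays), and wild-type Col-0 after the drought (3 arrays) and with water (3 arrays). None of the 14 arrays was of OX-5 with water, so OX-5 drought cannot be compared with watered leaves of the same line. The promoter that drives the transgene, the lesion of camta5-a and the number of plants behind an array are not given in the sources used here, and 1 line stands for each genotype. The labels call the replicates biological but do not name separate plants or pots. The p-values therefore measure only how these samples scatter, and that scatter may be technical.

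CAMTA5 belongs to the calmodulin-binding transcription activators, which bind calcium-loaded calmodulin and recognise promoter elements with a CGCG core. In Arabidopsis leaves members of this family are known for their part in responses to cold, pathogens and drought. In the annotation used here, 11798 of the 13350 genes with a probe set of their own carry only a locus number as symbol. CAMTA5 (AT4G16150) is among them, so the class does not mark genes with little study. The names camta5 and OX-5 mean the arrays with those labels here. The CAMTA5 probe set (AT4G16150) read 402 and 290 in OX-5 drought, against 265, 284 and 306 in camta5 drought, 191, 172 and 154 in camta5 water, 232, 146 and 217 in Col-0 drought and 115, 179 and 152 in Col-0 water. The first OX-5 array was above all others and the second lay within the range of camta5 drought, and camta5 was not lower than Col-0, so this level does not settle either label. Fewer cells of a type and less RNA per cell cannot be told apart in such leaf samples.

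The OX-5 arrays stood apart from the other 12 in their correlation and in several control probe sets. Their Spearman correlation with those arrays was 0.806 to 0.865 across probe sets, against 0.897 to 0.961 among the other 12. The BioB hybridisation control, a bacterial transcript added to the hybridisation mixture in the standard protocol for these arrays, read 643 to 1233 (middle probe set) on the OX-5 arrays and 20.4 to 85.9 on the other 12. For BioC, a second control of that mixture, the 5′ probe set read 904 to 2000 on the OX-5 arrays, against 920 to 1901 on the others. Its 3′ probe set read 1076 to 1732 on the OX-5 arrays, against 659 to 1287. The 25S rRNA control probe set read 4383 and 5961 in OX-5 and 8274 to 16184 elsewhere. The log2 excess of 3′ over 5′ signal, a sign of RNA quality, was 1.67 to 1.86 in OX-5 for one actin pair, below the 2.64 to 3.87 of the other arrays, and -0.03 to 0.16 for one GAPDH pair, below the 0.17 to 0.77 elsewhere. For the other GAPDH pair it was 1.18 to 1.31 in OX-5, within the 1.08 to 1.91 of the other arrays. The other actin pair gave 3.71 to 4.57 in OX-5, against 4.38 to 5.16 elsewhere. For the ubiquitin pair it was 1.64 to 1.79 in OX-5, in the upper part of the 0.98 to 1.80 of the other arrays. The part that these differences have in the low signals of the members was not tested. Of the leaf and cell type markers, 3 genes had a probe set of their own in the annotation used. RCA (Rubisco activase, mesophyll) read 39934 and 33840 in OX-5 against 28324 to 41941 elsewhere, and FMA, a guard cell factor, 110 and 262 against 147 to 376. The late senescence gene SAG29 read 32.0 and 3.27 in OX-5 drought, below all other arrays. In Col-0 and camta5 it read 124 to 309 with water and 2600 to 10007 after drought. The lists for trichome, phloem, xylem, root, flower and seed had no gene with a probe set of its own in that annotation. It lists no gene for 8794 of the 22810 probe sets, so the array may still measure some of these markers.

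**Figure D1:**
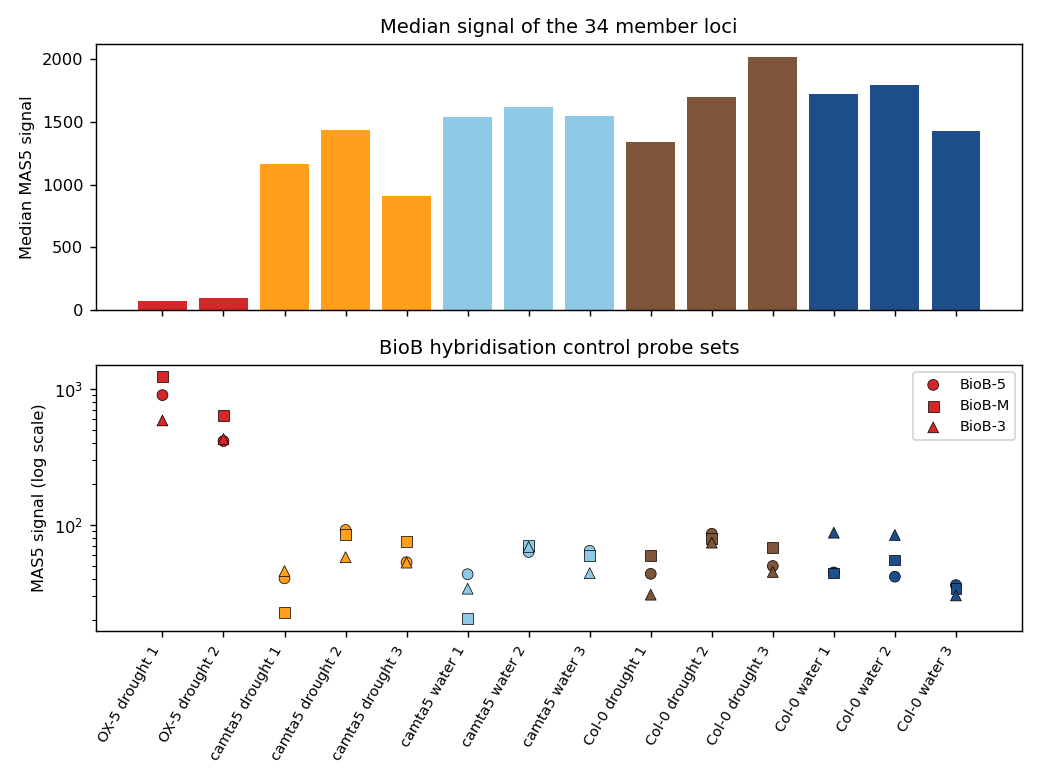
Top, bars of the median MAS5 signal of the 34 member loci on each of the 14 arrays. Bottom, MAS5 signal on a log scale of the 3 BioB hybridisation control probe sets on the same arrays. The members' median was 73.0 and 96.2 on the OX-5 arrays and 912 to 2019 on the others, and BioB was higher on both OX-5 arrays than on any other array.

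In each of the 34 loci, both OX-5 arrays lay below all 12 other arrays. Of all 15646 probe sets tested, 19.1% did so, and 0.639% had the differences of 3 or more that the rule asks for, so the count restates the rule. The signals of the members summed to 5709 and 6267 on the OX-5 arrays, against 89417 to 111907 on the others. On the log2 scale the median difference of the members was -3.77 from camta5 drought, -3.95 from camta5 water, -3.95 from Col-0 drought and -4.05 from Col-0 water, where the medians of all tested probe sets were between -0.04 and 0.05. The group that came nearest to OX-5 was camta5 drought for 13 members, camta5 water for 10, Col-0 drought for 8 and Col-0 water for 3. All 34 exceeded the array's 40th percentile on each of the 12 arrays, and 34 of 34 passed the filter on low values. The pass follows from the rule, which puts the mean of each other group at a signal of 112 or more on the log2 scale transformed back.

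**Figure D2:**
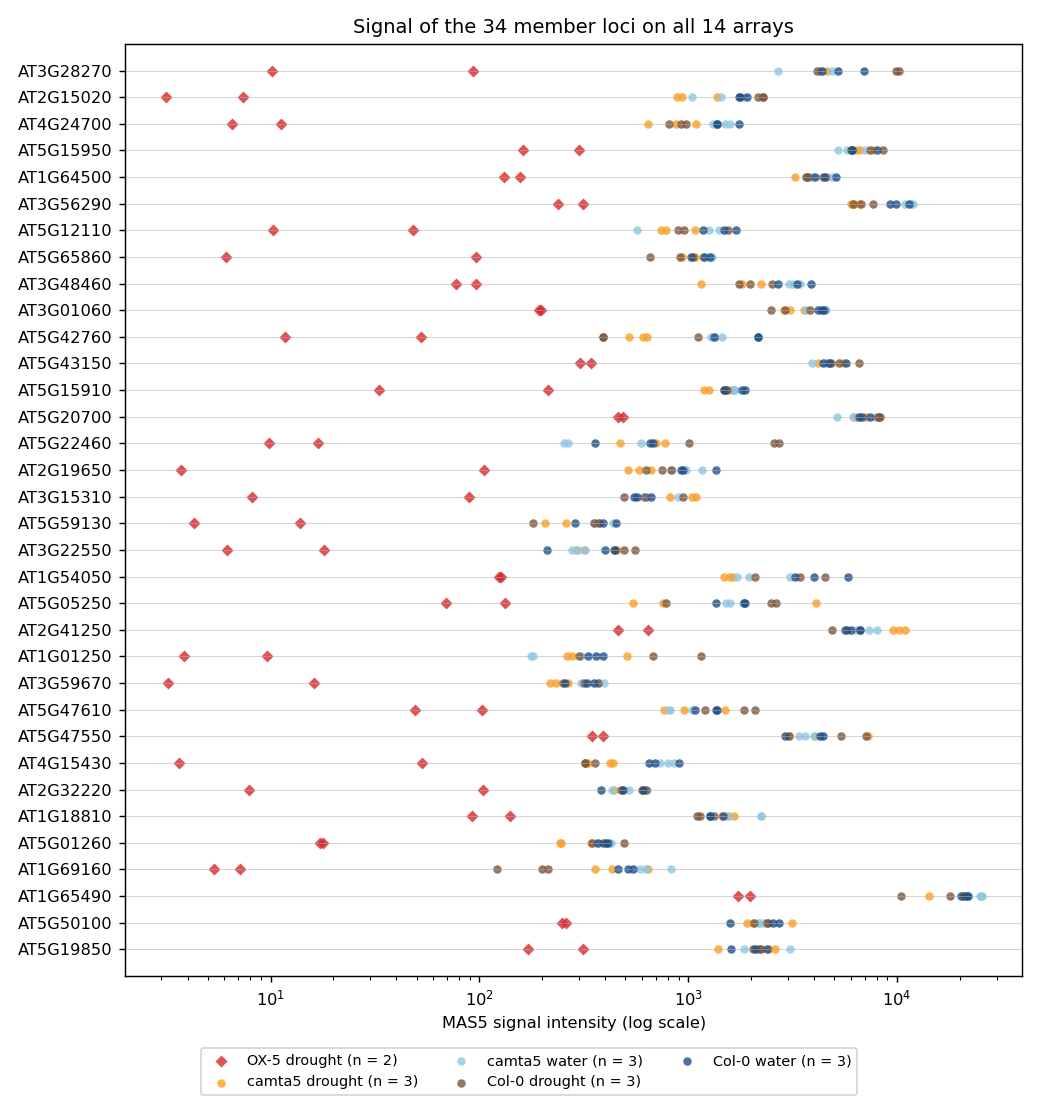
MAS5 signal on a log scale of each member locus (rows, ordered by the distance of OX-5 drought from the nearest group) on all 14 arrays. Red diamonds are the 2 OX-5 drought arrays and circles the arrays of the other groups, and every red diamond lies left of every circle of its row.

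AT3G28270 had the widest distance from its nearest group, with a log2 difference of -6.17 from camta5 water. It encodes a protein of the At14a-like family, which has been studied in plants under low water supply. Its signal was 93.5 and 10.1 in OX-5 drought, against 4270, 4340 and 4635 in camta5 drought, 4296, 2687 and 4899 in camta5 water, 4153, 10251 and 9846 in Col-0 drought and 4386, 6915 and 5229 in Col-0 water. Both OX-5 arrays were far below the rest, and Col-0 drought replicates 2 and 3 were the highest. The OX-5 signals were under the 40th percentile of their array. They are thus not told from background, and the size of the difference rests on the offset.

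AT2G15020, a locus without an assigned function, was near the bottom of the scale on both OX-5 arrays, at 7.36 and 3.15. The other groups read 929, 1379 and 885 in camta5 drought, 1435, 1040 and 1854 in camta5 water, 2293, 2166 and 2274 in Col-0 drought and 1753, 1781 and 1903 in Col-0 water. Both OX-5 signals were under the 40th percentile of their array, so they are not told from background and no fold is given, and the 3 Col-0 drought arrays were the highest. AT4G24700, also without an assigned function, read 6.51 and 11.2 in OX-5 drought and 642 to 1746 on the other 12 arrays, with a nearest log2 difference of -5.13. Its OX-5 signals were under that percentile too. AT3G28270, AT2G15020 and AT4G24700 were the 3 members whose nearest difference was -5 or less.

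Genes of metabolism and translation were among the next. AT5G15950, an S-adenosylmethionine decarboxylase gene of polyamine synthesis, had 302 and 162 in OX-5 drought, against 6361, 7657 and 6646 in camta5 drought, 7035, 5204 and 5778 in camta5 water, 8567, 6050 and 7391 in Col-0 drought and 8029, 6114 and 6090 in Col-0 water. The 4 other groups overlapped one another here, and its nearest log2 difference was -4.65. AT1G64500, of the glutaredoxin family of thiol redox proteins, read 156 and 131 in OX-5 drought and 3256 to 5080 elsewhere. AT5G12110, a subunit of translation elongation factor 1B, had 10.3 and 48.1 in OX-5 drought and 567 to 1696 on the others. AT3G48460, which encodes a GDSL-type esterase, read 77.1 and 96.0 in OX-5 drought, against 1156 to 3890. The OX-5 arrays were close to each other for AT1G64500 and AT3G48460 and further apart for AT5G12110, by 1.29 on the log2 scale.

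AT3G56290 and AT3G01060, for which no role is given here, were high in the other groups and well above the floor in OX-5. AT3G56290 had 238 and 314 in OX-5 drought and 5999 to 11995 elsewhere, and AT3G01060 had 197 and 193 in OX-5 drought and 2481 to 4593 elsewhere. AT5G65860, of the ankyrin repeat proteins, completed the 10 widest with 6.10 and 96.4 in OX-5 drought and 653 to 1295 on the others.

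Low in OX-5 did not always mean near the floor. On the OX-5 arrays 14 members were under the array's 40th percentile on both arrays, 8 on 1 array and 12 on neither. That percentile was itself higher in OX-5, at a signal of 88.8 to 104, than on the other arrays, at 63.9 to 74.5. AT1G65490 had the highest signals of the members, with 1734 and 1981 in OX-5 drought, against 21141, 14273 and 20832 in camta5 drought, 24941, 25304 and 25454 in camta5 water, 21045, 18048 and 10507 in Col-0 drought and 21996, 20201 and 21721 in Col-0 water. The lowest of its 12 other arrays was 5.30 times the higher OX-5 array. AT2G41250, a haloacid dehalogenase-like hydrolase, read 460 and 645 in OX-5 drought and 4898 to 10899 elsewhere, and AT5G20700, of the FLZ zinc finger family, 486 and 463 in OX-5 drought and 5147 to 8338 elsewhere.

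Further members belonged to families with regulatory or protein-handling roles. The AP2/ERF transcription factor gene AT1G01250 read 9.64 and 3.83 in OX-5 drought and 176 to 1150 on the other arrays. AT5G47610, a RING finger gene, had 103 and 49.0 in OX-5 drought, against 765 to 2096. The FLZ gene AT3G22550 had 18.0 and 6.19 in OX-5 drought, against 211 to 555. These 3 had their highest signals in Col-0 drought, the first 2 in replicates 2 and 3 and AT3G22550 in replicate 3.

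Among genes of protein folding and turnover, the small heat shock protein gene AT1G54050 read 127 and 124 in OX-5 drought, against 1645, 1485 and 1589 in camta5 drought, 1963, 1707 and 3085 in camta5 water, 3422, 2100 and 4508 in Col-0 drought and 5854, 3991 and 3237 in Col-0 water. AT5G47550, a cystatin, which inhibits cysteine proteases, had 392 and 348 in OX-5 drought and 2908 to 7239 elsewhere, and the subtilisin-like protease gene AT5G59130 had 4.28 and 13.9 in OX-5 drought and 181 to 453 elsewhere. AT5G05250, without an assigned function, had 68.9 and 132 in OX-5 drought but varied most within a group among the others, with 4111, 754 and 546 in camta5 drought. Here 1 camta5 drought array was above every other array, and the remaining pair were below all of the watered arrays.

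The remaining members are named here without a role. AT5G43150 read 344 and 303 in OX-5 drought and 3927 to 6614 on the other arrays. AT3G59670 had 3.24 and 16.2 in OX-5 drought, against 217 to 395, and AT5G01260 had 17.2 and 17.9 in OX-5 drought, against 243 to 492. The signal of AT5G01260 differed least between the OX-5 arrays, by 0.03 on the log2 scale.

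The 2 OX-5 arrays agreed to within 1 on the log2 scale for 25 members and differed by more than 2 for 6. The 3 with the largest gaps were AT2G19650, a C1 domain gene, at 105 and 3.74, AT5G65860 at 6.10 and 96.4, and AT2G32220, of the ribosomal protein L27 family, at 7.90 and 104. The other 3 were AT5G15910 (33.0 and 212 in OX-5 drought, 1196 to 1876 elsewhere), AT3G15310, which RefSeq lists as a pseudogene (8.11 and 89.0 in OX-5 drought, 495 to 1092 elsewhere), and AT3G28270. Replicate 1 was the higher for 16 members and replicate 2 for 18. With replicate 1 as the sole OX-5 array, 60 loci met the rule, 31 of the 34 among them, and with replicate 2 as the sole one 41 did, 26 of the 34 among them.

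**Figure D3:**
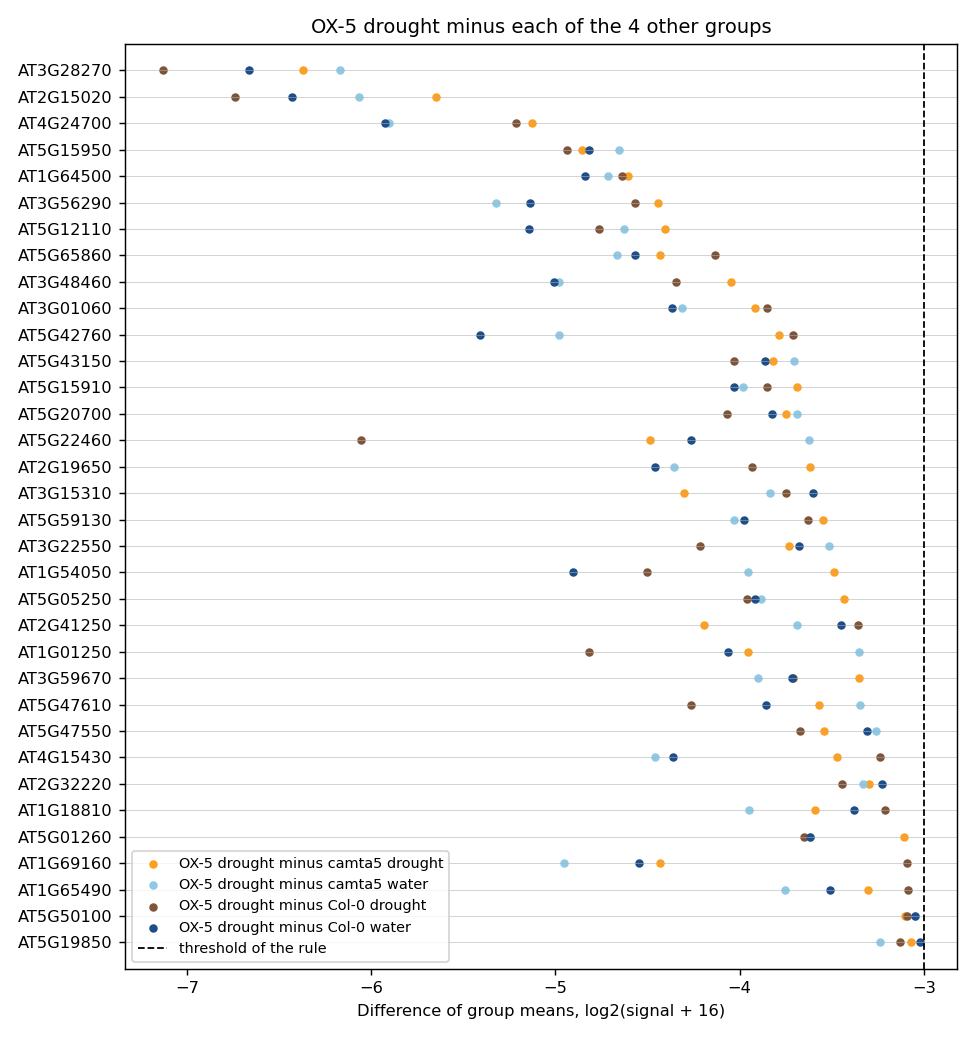
Log2 difference of OX-5 drought from each of the 4 other groups (points) for each member locus (rows). The dashed line is the threshold of -3, and the point nearest to it in each row is the nearest group, from -6.17 for AT3G28270 to -3.02 for AT5G19850.

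The threshold cut through a continuum. Just inside were AT1G65490 at -3.09, AT5G50100 at -3.05 and the alpha/beta hydrolase gene AT5G19850 at -3.02, and just outside were AT3G05180 at -2.99, AT2G04039 at -2.92 and AT5G54130 at -2.91. With an offset of 1 in place of 16, 85 loci met the rule, and with an offset of 64, 17 did, since the offset decides how far a signal near the floor can fall. The same differences were met by 66 further probe sets outside the locus class, of which 60 have no gene listed in the annotation used and 6 carry a gene symbol. AFR, an F-box gene of phytochrome A signalling, read 107 and 173 in OX-5 drought and 2648 to 9455 elsewhere, and GIS, a trichome zinc finger gene, 28.9 and 5.70 in OX-5 drought and 499 to 1913 elsewhere. HYH, the close relative of the light-signalling factor HY5, read 105 and 27.2 in OX-5 drought and 640 to 2319 elsewhere. The remaining ones were UGT78D2, a flavonoid glucosyltransferase gene, and the plastid-encoded genes rpoC1 and ndhD.

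By locus number, 15 members (44.1%) were on chromosome 5, where 24.2% of the 7337 tested probe sets of this annotation class lie. Chromosome 3 held 7 members (20.6%, against 20.2% of those probe sets) and chromosome 1 held 6 (17.6%, against 26.7%). Chromosome 2 held 4 (11.8%, against 14.7%) and chromosome 4 held 2 (5.88%, against 14.1%). Both pairs of near neighbours were on chromosome 5. AT5G15910 and AT5G15950 have 3 protein-coding loci between them, of which the 1 measured had a nearest difference of 0.91. AT5G47550 and AT5G47610 have 5 between them, and the 2 measured ones had -0.34 and 2.66. The loci at 0.91 (AT5G15940) and 2.66 (AT5G47600) failed the filter on low values, so neither could have met the rule. Of the 22 tested probe sets for genes directly next to a member, none met the rule, and 6 (27.3%) were lower by 1 or more in OX-5 drought than in Col-0 drought, which held for 17.1% of all tested probe sets. The most marked were AT1G64490, beside AT1G64500, at -2.27 from its nearest group, and AT5G50110, beside AT5G50100, at -2.25.

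No OX-5 array enters the drought differences of the members in the other 2 genotypes, which were tested in a limma fit over all probe sets. The OX-5 arrays did enter the estimate of the spread behind each p-value, since the fit used all 14 arrays. The rule still bears on it, since a locus that fell close to the OX-5 level in drought could not be a member. In Col-0, drought lowered 7 of the 34 loci and raised 1 at an adjusted p under 0.05, where 11.7% of all tested probe sets were lower and 15.6% higher, and 27.3% were called either way. The drought arrays lay below all watered ones in 8 members (19% of all tested probe sets) and above them in 3 (25.6%). AT5G42760, of the leucine carboxyl methyltransferase family, had 1109, 391 and 390 in Col-0 drought and 2166, 2161 and 1326 in Col-0 water, a log2 difference of -1.70 ± 0.37 (SE, limma, adjusted p = 0.00416). AT1G69160, without an assigned function, had 214, 200 and 121 in Col-0 drought and 513, 462 and 542 in Col-0 water (-1.46 ± 0.24, adjusted p = 0.000855). For both loci the groups did not overlap.

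AT4G15430, a relative of the early dehydration-responsive gene ERD4, fell by 1.13 in Col-0 (adjusted p = 0.0184), with 358, 319 and 320 after drought and 903, 652 and 697 with water. AT4G24700 fell by 0.72 (adjusted p = 0.0132), and AT3G56290, AT3G01060 and AT3G48460 by 0.57, 0.52 and 0.66 (adjusted p = 0.00846, 0.0282 and 0.0383). The 1 member that rose was AT5G22460, an alpha/beta hydrolase gene, with 1007, 2574 and 2727 in Col-0 drought, against 659, 678 and 359 in Col-0 water (1.79 ± 0.39, adjusted p = 0.00430). Replicate 1 was well below the other two drought arrays and still above all watered ones. For the whole set the median drought difference in Col-0 was -0.05, beside 0.08 over all tested probe sets, and 16 members were above 0. Without Col-0 water replicate 1 the 8 calls were 4 (1 higher and 3 lower), and without Col-0 drought replicate 2 or 3 they were 5 (1 higher and 4 lower). The calls of AT4G15430, AT4G24700, AT3G48460 and AT3G01060 ended without Col-0 water replicate 1 (adjusted p = 0.0710, 0.0573, 0.0898 and 0.0523). Those of AT4G15430 (0.0580), AT4G24700 (0.0590) and AT3G01060 (0.137) ended without drought replicate 2, and those of AT4G15430 (0.0512), AT3G48460 (0.0983) and AT3G01060 (0.0834) without drought replicate 3. AT3G48460 was also lost without Col-0 water replicate 2 (0.149), Col-0 drought replicate 1 (0.111) or camta5 water replicate 1 (0.0501) or 2 (just over the threshold), and AT3G01060 without Col-0 water replicate 2 or 3 (0.0744 and 0.0756).

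In camta5, drought lowered 4 members and raised 1, beside 7.61% lower and 8.67% higher over all tested probe sets, or 16.3% either way. The drought arrays lay below all watered ones in 13 members (16.7% of all tested probe sets) and above them in 1 (19.9%). AT3G56290 had 5999, 6608 and 6217 in camta5 drought and 11696, 11995 and 10989 in camta5 water (-0.88 ± 0.14, adjusted p = 0.00168). AT3G48460 fell by 0.93 (adjusted p = 0.0125), AT4G24700 by 0.77 (adjusted p = 0.0160) and AT5G42760 fell by 1.19 (adjusted p = 0.0406). All of these also fell in Col-0. AT2G41250 rose, with 10237, 10899 and 9600 in camta5 drought, against 8034, 6394 and 7327 in camta5 water (0.50 ± 0.16, adjusted p = 0.0446). AT4G15430, at -0.99 ± 0.32, just missed the threshold (adjusted p = 0.0508).

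The median drought difference of the members in camta5 was -0.27, beside 0.04 over all tested probe sets. The sign was the same in both genotypes for 28 of 34 members (82.4%), with 17 negative and 11 positive in both, and for 78.7% of all tested probe sets. The calls in camta5 were 7 (1 higher and 6 lower) in a fit to the 12 Col-0 and camta5 arrays alone. With the replicate number as a block they were 3, all lower, without AT2G41250 (adjusted p = 0.0570) and AT5G42760 (0.0507). With camta5 water replicate 1, whose genotype entry reads wild type, counted as Col-0 they were 3, all lower, without AT2G41250 (adjusted p = 0.0722) and AT5G42760 (0.0862). They numbered 2 to 7 when 1 array was left out, down to 2 when camta5 water replicate 1, camta5 water replicate 2 or camta5 drought replicate 3 was missing, and 3 without camta5 water replicate 3, camta5 drought replicate 2 or Col-0 water replicate 1 or 2. The rise of AT2G41250 ended without any 1 of the 6 camta5 arrays (adjusted p = 0.0625 to 0.148) or any 1 of the Col-0 water arrays (0.0512 to 0.0576), and the fall of AT5G42760 without any 1 of the camta5 arrays (0.0777 to 0.112) or without Col-0 water replicate 1 or 2 (0.0504 and 0.0521). The fall of AT4G24700 ended when camta5 drought replicate 3 (0.0684) or either of camta5 water replicates 1 and 2 (0.0548 and 0.0551) was missing.

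**Figure D4:**
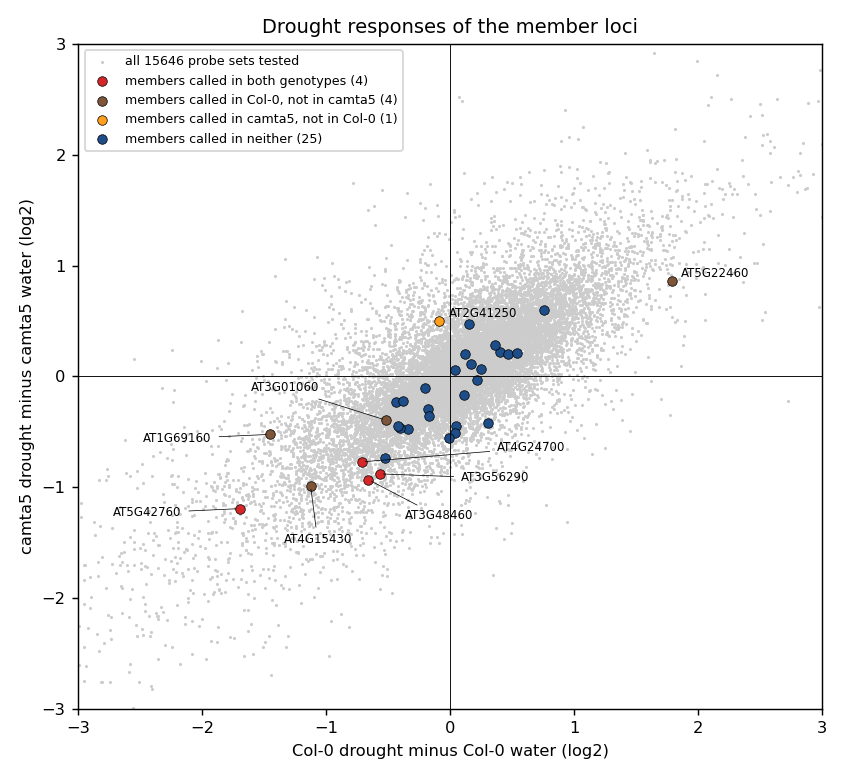
Log2 difference of drought and water in camta5 (vertical) against that in Col-0 (horizontal) for the 34 member loci over all 15646 tested probe sets (grey), with axes limited to -3 and 3. Of the members, 4 were called in both genotypes, all lower, and 25 in neither.

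Between the genotypes after drought, 2 members were higher in camta5 than in Col-0 and 1 was lower, beside 1.02% higher and 0.441% lower over all tested probe sets, or 1.46% either way. The camta5 arrays lay above all Col-0 arrays in 3 members (7.77% of all tested probe sets) and below them in 5 (10.2%). AT1G69160 read 643, 431 and 358 in camta5 drought, against 214, 200 and 121 in Col-0 drought (1.34 ± 0.24, adjusted p = 0.0120). With OX-5 at 7.16 and 5.37, this locus was highest in camta5, lower in Col-0 and lowest in OX-5 among the droughted groups, with no overlap. AT2G41250 had the same order, with 10237, 10899 and 9600 in camta5 drought and 5788, 6670 and 4898 in Col-0 drought (0.83 ± 0.16, adjusted p = 0.0159), and 460 and 645 in OX-5 drought. AT2G15020 differed in direction. It was lower in camta5 drought, at 929, 1379 and 885, than in Col-0 drought, at 2293, 2166 and 2274 (-1.09 ± 0.21, adjusted p = 0.0152). The comparisons of OX-5 and camta5 with Col-0 share the Col-0 drought arrays, and the OX-5 side of each order comes from the rule.

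**Figure D5:**
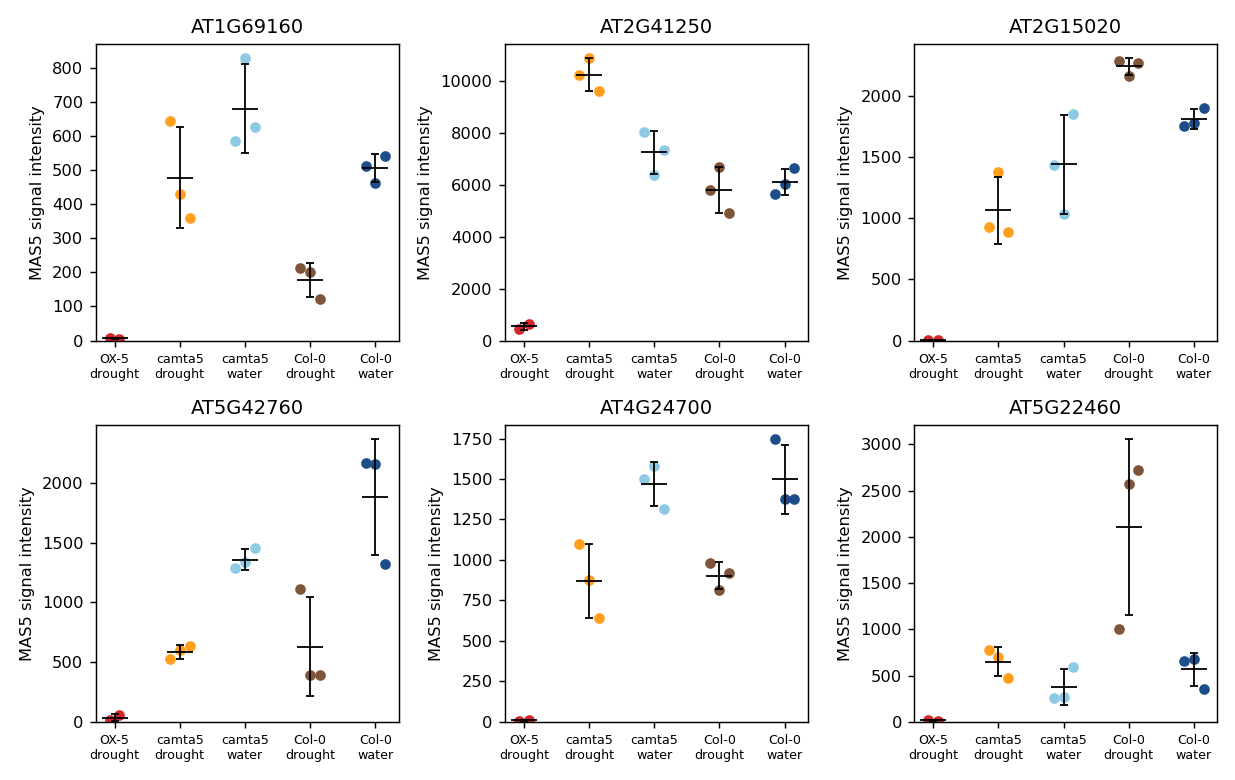
MAS5 signal of 6 members with a call in camta5 or Col-0, by group, with points for arrays and bars for mean ± SD (n = 2 for OX-5 drought, n = 3 for each other group). AT1G69160 and AT2G41250 were higher in camta5 drought than in Col-0 drought, and AT2G15020 was lower.

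Other members came close without passing. AT5G22460 read 776, 705 and 471 in camta5 drought, below all 3 Col-0 drought arrays, at a log2 difference of -1.57 ± 0.39 (adjusted p = 0.0661), and AT1G54050 was at -1.01 ± 0.28 (adjusted p = 0.0880). The median difference between camta5 and Col-0 in drought was -0.14 for the members and -0.03 for all tested probe sets, and 24 of 34 were below 0. The 3 calls depended on single arrays. Without Col-0 drought replicate 3 none of the 34 was called (9 had an unadjusted p under 0.05 with all arrays, as had 2345 of all 15646 tested probe sets), with adjusted p of 0.0662 for AT1G69160, 0.0965 for AT2G41250 and 0.0678 for AT2G15020. Without Col-0 drought replicate 1 there were 5 calls, 2 higher and 3 lower. The call of AT2G41250 also ended without camta5 drought replicate 2 (0.0511) and that of AT2G15020 without camta5 drought replicate 1 or 3 (0.0503 and 0.0793).

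With water, none of the 34 loci was called between camta5 and Col-0 in limma, as was none of all tested probe sets (0%), and 2 members had an unadjusted p under 0.05, as had 1000 (6.39%) of all tested probe sets. These were AT1G54050, at 1963, 1707 and 3085 in camta5 and 5854, 3991 and 3237 in Col-0 (-0.95 ± 0.28, adjusted p = 0.468), and AT1G18810, a gene related to the phytochrome kinase substrates, at 2244, 2236 and 1573 in camta5 and 1476, 1274 and 1270 in Col-0 (0.57 ± 0.18, adjusted p = 0.547). In each case the 3 camta5 arrays lay on 1 side of the 3 Col-0 arrays, which 7.87% of tested probe sets did above and 7.38% below.

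A test of the interaction set the drought difference in camta5 against that in Col-0. No member was called, nor was any of the tested probe sets (0%) in limma, which does not show that the responses were equal. An unadjusted p under 0.05 was found for 3 members and for 885 (5.66%) of all tested probe sets. AT1G69160 was at 0.93 ± 0.35 (adjusted p = 0.866), AT2G41250 at 0.59 ± 0.23 and AT2G15020 at -0.73 ± 0.29 (adjusted p = 0.870 each).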

How the data were processed

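Each of the 14 samples was 1 ATH1 array. The deposited values are linear signal intensities, which the submitters' processing notes credit to MAS5 in Affymetrix Expression Console. Computed from the values, the mean of every array with 2% trimmed at each end was 500.0 to 500.1. Detection calls and scanner files were not used here. Precision is set by the number of arrays, since there are no reads to count. No 2 arrays shared more than 2 identical values.

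Genes came from the platform annotation, and 13436 of 13513 1-gene probe sets were matched to RefSeq (TAIR10.1) to update symbols. No coordinates are printed, since no build is given for the probe sets. The replicate numbers come from the titles. Samples were grouped by title, also camta5 water replicate 1, whose genotype entry reads wild type.

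Values were taken as log2(value + 16), which understates the change of low signals. The filter kept 15646 probe sets that exceeded the 40th percentile of 2 or more arrays (64 controls were left out), and these were tested with limma 3.58.1 in R 4.3.3, 1 mean per group, trended moderation, two-sided, with Benjamini-Hochberg adjustment over all tested probe sets in each of 5 comparisons. The fit was tested on simulated data. Figures and counts used python 3.11.15. Named were the 10 members with the widest nearest difference, those at the threshold, those with the highest signal, those whose OX-5 arrays differ most and up to 4 called members in each direction per comparison, or the 2 of smallest p. The remaining members were named to account for all 34, after their values were seen. Alternatives were other offsets, filters, normalizations and moderation, the replicate number as a block, and each array left out in turn. The members and lists were chosen with earlier results of these data known.

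Promoter motifs and gene classes by description were not run, because the tables used here hold neither sequences nor descriptions.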

Additional observations from a re-analysis of the deposited data

Results flagged for a closer look

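The BioB control transcript, which is no part of the expression comparisons, gave more signal on the OX-5 arrays than on any other array. The lowest OX-5 signal was 415 for the 5′ probe set, 643 for the middle and 431 for the 3′ one, while the highest of the other 12 arrays were 92.1, 85.9 and 88.0. The CreX control overlapped between OX-5 and the others, with 9747 and 13610 against 9094 to 16519 for its 5′ probe set. For its 3′ one, OX-5 replicate 1 read 24460, against at most 20516 on the others. The same array was the highest for BioC and for the BioDn control. BioDn read 5130 (5′) and 8057 (3′) there, against at most 3752 and 6181 on the others. OX-5 replicate 2 lay within the others' range for these, apart from BioC 5′, where it was the lowest. Whether the member loci are low for a reason linked to these control signals was not tested.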

How the results depend on the processing

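The number of loci that meet the rule was 85 with an offset of 1, 17 with an offset of 64, 138 at a threshold of -2 and 9 at -4, and 32 to 60 when 1 array was left out. It was 41 after quantile normalization and 38 after centring on the median, with all 34 members included in both. Each of the 680 recomputed nearest differences of the members stayed below 0, and 44 were above -3, the weakest at -1.76 (AT1G69160, offset 64). The rule chose the members by this same difference on the same arrays, so its sign was largely fixed in advance and is no support. Quantile normalization ended the calls of AT3G48460, AT3G56290 and AT3G01060 in Col-0 (adjusted p = 0.0922, 0.0646 and 0.0775). The calls among the members numbered 8 for drought in Col-0 (4 to 9 with 1 array left out). For drought in camta5 the 5 calls were 3 with no filter, without trend, with the replicate block and with camta5 water replicate 1 counted as Col-0, 6 with an offset of 64 or a filter at the 60th percentile, 7 after quantile normalization or with the 12 Col-0 and camta5 arrays alone, and 2 to 7 with 1 array left out. For camta5 against Col-0 in drought the 3 calls were 0 to 5 with 1 array left out. The counts with water and for the difference of the responses were 0 under all alternatives run. An offset of 1 ended the calls of AT4G15430 in Col-0 (adjusted p = 0.152), AT5G42760 in camta5 (0.0864) and AT2G15020 between the genotypes in drought (0.0550). Of 500 recomputed tests of named members, 441 kept their side of the threshold, 59 lost the call and none turned its direction. The 500 include tests with water and of the interaction, which had no call to lose. Same-numbered arrays of different groups correlated at -0.16 to 0.24 in their deviations from the group means (3 of 26 pairs over 0.1). Pairs with different numbers correlated at -0.31 to 0.17, and 7 of 14 arrays correlated best with their own number. These values do not settle whether the numbers pair the samples. Of the 5 comparisons, the replicate block moved the count of calls by over 1.5 times only for drought in camta5, where AT2G41250 and AT5G42760 lost their calls (adjusted p = 0.0570 and 0.0507). Promoter motifs and gene classes were not run. No paired analysis was possible for the number of loci that meet the rule because it comes from no test. Without detection calls, the 14 members under the 40th percentile on both OX-5 arrays cannot be told from background there.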
